A study of Arabidopsis thaliana with 12 samples.

Results

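PRA1.B6 (locus AT5G07110) and AT4G38040 are Arabidopsis genes of the secretory pathway, each represented by 1 spot of an array of 3439 probes, and both had higher signal in the pam48 mutant than in the wild type (WT). They make up 2 of the 692 genes that have a probe assigned to a single gene. They were selected on their intensities in the 12 samples, for higher signal in pam48 and WT values near background, so the difference between the genotypes is described here without a test, and nothing is concluded from it. The samples were 6 of the pam48 mutant and 6 of WT, both in ecotype Columbia 0, hybridised as total RNA and numbered 1 to 6 within each genotype. The labels say that pam48 has altered photosynthesis and has a defect in a protein that they leave unnamed, and they give no tissue, age, growth condition or allele. The mutated gene could therefore not be used to check the labels. Of 10 leaf genes chosen as markers 5 had a probe with a single gene, and their mean position in the brightness order of a sample lay between the 75.3 and 99.7 percentiles in pam48 and between 95.3 and 99.6 in WT. None of 16 markers of root, pollen, seed or senescing leaf had such a probe.

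PRA1.B6 belongs to the prenylated Rab acceptor 1 family, small membrane proteins of the endoplasmic reticulum, Golgi and endosomes that bind prenylated Rab GTPases. Rab GTPases mark each compartment of the secretory route and recruit the machinery that moves, tethers and fuses vesicles. AT4G38040 encodes a protein of the exostosin family, classed in plants as glycosyltransferase family GT47. Its characterised members include Golgi membrane enzymes that add sugars to hemicelluloses and pectins of the cell wall. The acceptor of AT4G38040 itself is not known from the sources used here.

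The deposited values are spot intensities on a linear scale on which the brightest spots of every sample stand at 100. PRA1.B6 had intensities of 0.390, 0.322, 0.737, 0.566, 0.378 and 0.364 in pam48 samples 1 to 6, against 0.0341, 0, 0, 0, 0.295 and 0.298 in WT samples 1 to 6. All 6 pam48 values were above all 6 WT values, but the WT samples fell into a dark set, numbers 1 to 4, and a bright set, numbers 5 and 6. The array as a whole was split likewise: the median of all probes was 0.0913 to 0.0999 in WT 1 to 4, and 0.191 and 0.192 in WT 5 and 6. The mean was 0.459 ± 0.160 in pam48 and 0.104 ± 0.149 in WT (SD, n = 6 each), so that in WT the spread exceeded the mean.

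AT4G38040 had intensities of 0.894, 1.12, 1.15, 1.101, 0.341 and 0.345 in pam48 samples 1 to 6, against 0.255, 0.171, 0.121, 0, 0 and 0 in WT samples 1 to 6. Again no WT value reached the lowest pam48 value, and here it was numbers 5 and 6 that were low in pam48 and listed at 0 in WT. The mean was 0.826 ± 0.385 in pam48 and 0.0911 ± 0.109 in WT (SD, n = 6 each). Of all probes, 12.6% had deposited values that were higher in pam48 without overlap, the state in which both genes were found. That share is a description of this scale, on which the median of a sample ran from 0.233 to 0.305 in pam48 and from 0.0913 to 0.192 in WT.

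**Figure D1:**
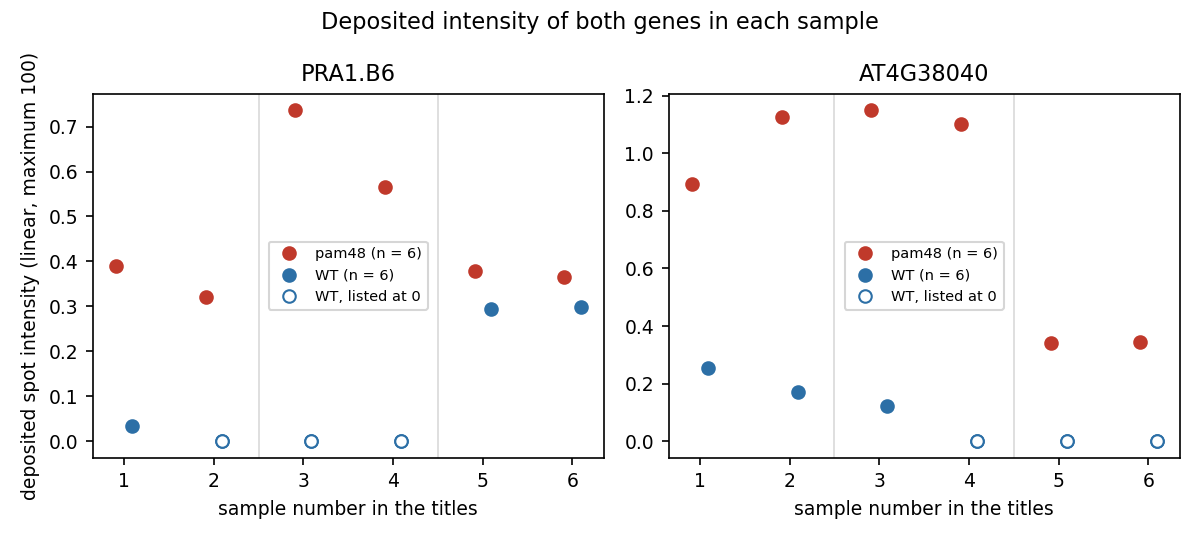
Deposited spot intensity (linear scale, maximum 100) of PRA1.B6 and AT4G38040 against sample number, with 1 point per sample, pam48 in red and WT in blue, and open circles for values listed at 0. Each gene has 3 WT samples at 0, numbers 2 to 4 for PRA1.B6 and 4 to 6 for AT4G38040, and the vertical lines part the couples of consecutive numbers.

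Since the samples differed in their medians, each value was also set against the median of its own sample. PRA1.B6 stood at 1.67, 1.36, 2.41, 1.86, 1.54 and 1.52 times the sample median in pam48 samples 1 to 6, against 0.341, 0, 0, 0, 1.54 and 1.56 times in WT samples 1 to 6. In numbers 5 and 6 the genotypes were therefore level on this scale, with a ratio of pam48 to WT of 0.998 in number 5 and 0.981 in number 6. In number 1, the other number with a WT signal, the ratio was 4.91. The genotypes overlapped, because the WT values of numbers 5 and 6 lay within the pam48 range.

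AT4G38040 stood at 3.84, 4.75, 3.77, 3.61, 1.39 and 1.44 times the sample median in pam48 samples 1 to 6, against 2.55, 1.71, 1.32, 0, 0 and 0 times in WT samples 1 to 6. Here too the genotypes overlapped, since WT samples 1 and 2 were above pam48 samples 5 and 6. Within each number pam48 was still the higher, by a ratio of 1.51 in number 1, 2.77 in number 2 and 2.86 in number 3, while the ratio has no value in numbers 4 to 6, where WT was listed at 0. Relative to the sample median, 1.66% of all probes were higher in pam48 without overlap, and neither gene was among them.

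Rank within the sample does not depend on any scaling, and on it too the genotypes overlapped for both genes. PRA1.B6 lay at percentiles 60.8 to 77.7 in pam48, against 23.2 in WT 1, 4.96 to 5.61 in the 3 WT samples at 0, and 64.6 and 65.2 in WT 5 and 6. AT4G38040 lay at percentiles 84.9 to 88.2 in pam48 samples 1 to 4 and 63.5 in samples 5 and 6, against 73.1, 64.6 and 56.0 in WT samples 1 to 3 and 4.07 to 5.45 in the WT samples at 0. In pam48 the position of AT4G38040 was thus lower in samples 5 and 6 than in the other 4, whereas that of PRA1.B6 in pam48 did not show such a step. Percentiles compare samples for a given spot and do not compare the transcript levels of different genes.

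**Figure D2:**
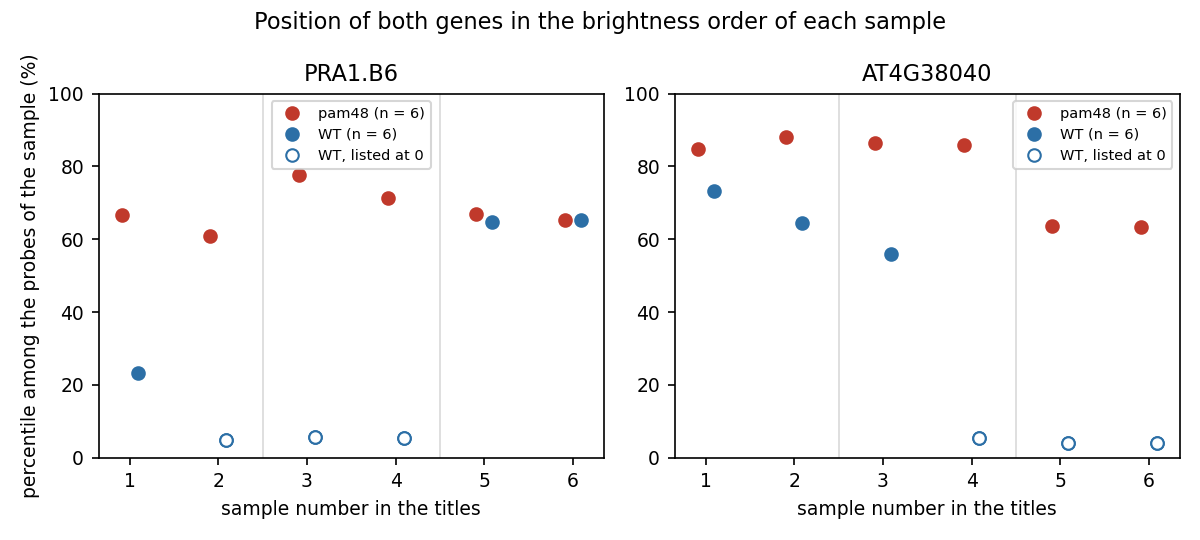
Percentile of PRA1.B6 and AT4G38040 among the 3439 probes of each sample, against sample number, with pam48 in red, WT in blue and open circles for values listed at 0. For PRA1.B6 the points of both genotypes coincide near percentile 65 in numbers 5 and 6, and for AT4G38040 pam48 lies above WT in each number.

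After quantile normalisation between samples, with values under the 5th percentile of a sample's positive intensities raised to that floor, PRA1.B6 averaged -1.53 ± 0.32 in pam48 and -3.44 ± 1.37 in WT (log2 intensity, SD, n = 6 each). The difference of pam48 minus WT was 1.90 ± 0.52 (log2, SE), or 3.74-fold. AT4G38040 averaged -0.76 ± 0.80 in pam48 and -3.22 ± 1.69 in WT (log2 intensity, SD, n = 6 each), a difference of 2.46 ± 0.67 (log2, SE), or 5.50-fold. Each SE here is limma's, which moderates the spread over all probes and takes each column as a separate sample. It is too small if columns are not separate plants, which the labels do not state. The median probe changed by -0.13 on this scale. Normalised values were higher in pam48 without overlap for 2.53% of all probes, and both genes fell outside that set. In bulk RNA of this kind, fewer cells of a type and less RNA per cell cannot be told apart.

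The size of both differences rests on how the zeros are treated, because 3 of 6 WT samples of each gene were at the floor and none of the pam48 samples was. On the values as deposited, with the same floor rule, the difference was 3.50 for PRA1.B6 and 3.57 for AT4G38040 (log2), on a scale on which the median probe differed by 1.06. Where both genotypes had a signal above the floor, the normalised difference of PRA1.B6 was 2.07 in number 1, 0.11 in number 5 and 0.0043 in number 6 (log2). For AT4G38040 it was 0.86, 1.68 and 1.87 in numbers 1, 2 and 3 (log2), the only numbers in which both genotypes were measured.

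In each of the 12 columns the nearest other column of the genotype was the one with the consecutive number (1 with 2, 3 with 4, 5 with 6), with a consensus correlation of 0.812 within these couples, and the labels do not say whether such columns came from separate plants. The couples are therefore given side by side. PRA1.B6 was higher in pam48 by 2.39 in numbers 1 and 2, by 3.26 in numbers 3 and 4 and by 0.055 in numbers 5 and 6 (log2). Larger differences were found for 0.552%, 0.989% and 42.3% of all probes in these couples, in that order. AT4G38040 was higher by 1.27, 3.02 and 3.09 (log2) in the same order, with 6.80%, 1.40% and 0.0582% of all probes above it. The genes thus parted in numbers 5 and 6, where PRA1.B6 lay in the bulk of the array and AT4G38040 near its upper end. The size of several of these values rests on the floor, since PRA1.B6 was at 0 in WT 2, 3 and 4 and AT4G38040 in WT 4, 5 and 6. Both genes were selected for higher signal in pam48 in these samples, so their places among all probes are a description.

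**Figure D3:**
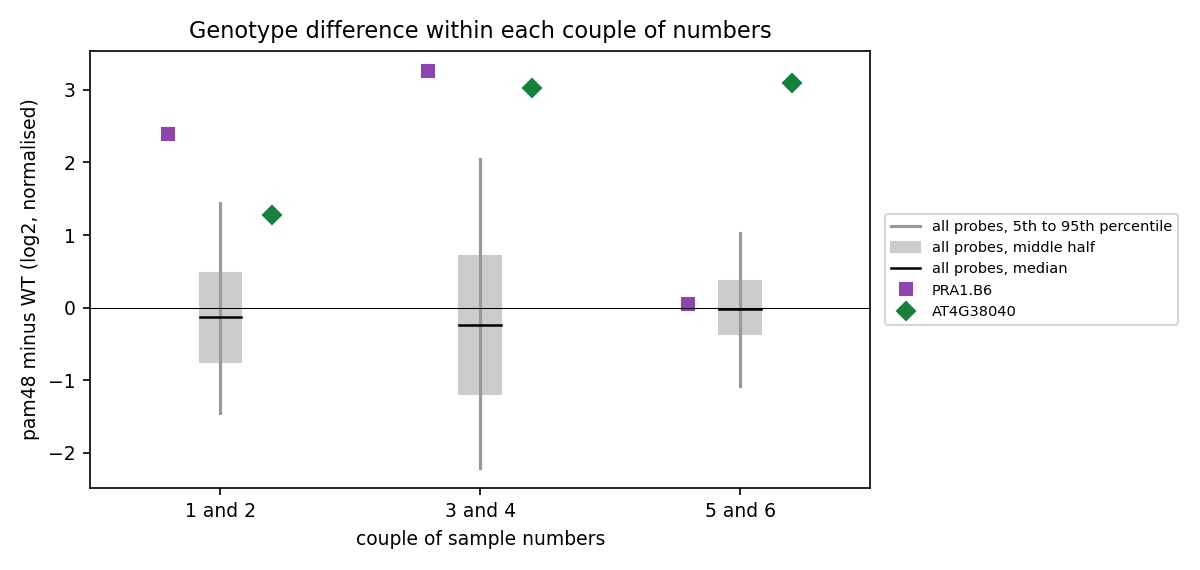
Difference of pam48 minus WT (log2, normalised) within each couple of sample numbers, with PRA1.B6 as squares, AT4G38040 as diamonds, and for all 3439 probes the median (black line), the 25th to 75th percentile (grey box) and the 5th to 95th percentile (grey line). PRA1.B6 lies near 0 in numbers 5 and 6, at 0.055, and AT4G38040 lies at 3.09 there.

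For PRA1.B6 it was the WT level that differed between numbers. In WT it averaged -1.71 in numbers 5 and 6, against -4.30 in numbers 1 to 4 (log2 intensity), where most values were at the floor, and in pam48 -1.66 against -1.47. WT samples 5 and 6 were above all of WT 1 to 4, which was also so for 23.9% of all probes. In WT and not in pam48, as for PRA1.B6, it was so for 10.2% of all probes. AT4G38040 was lower in numbers 5 and 6 in both genotypes, averaging -1.78 against -0.25 in numbers 1 to 4 in pam48, and -4.87 against -2.39 in WT (log2 intensity), where the lower value is the floor. Both pam48 samples 5 and 6 were below all of pam48 1 to 4, as for 25.9% of all probes. WT samples 4, 5 and 6 were all at 0 and have no order among themselves.

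Within couples both genes were close in pam48, with gaps of at most 0.40 for PRA1.B6 and 0.36 for AT4G38040 (log2, normalised). In WT the widest gap for AT4G38040 was 2.35, between WT 3 at 0.121 on the deposited scale and WT 4 at 0. Such a step was rare between these columns. Of the 387 probes listed at 0 in exactly 1 of WT 3 and WT 4, the other column had a median of 0.0218 and reached the AT4G38040 value in 3 cases, AT4G38040 included. The difference of this gene in numbers 3 and 4 was 1.87 in number 3 and 4.17 in number 4 (log2, normalised).

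Zeros in WT alone were few. Exactly 3 WT values at 0 with none in pam48 were found for 30 of 3439 probes, or 0.872%, both genes among them. With 3 or more WT zeros and none in pam48 there were 48 probes (1.4%), and with 3 or more pam48 zeros and none in WT there were 5 (0.145%). Zeros overall made up 4.16% to 8.58% of the probes of a sample in pam48 and 8.11% to 11.2% in WT. In numbers 1 to 4 they were fewer in pam48, and also in number 6, at 7.73% in pam48 and 8.11% in WT. In number 5 they were not, at 8.58% in pam48 and 8.37% in WT. The part of this in the values of both genes was not tested.

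Of 19 PRA1 genes in the gene table, PRA1.B3 was the other one with a probe of its own. It encodes a protein of the same PRA1.B clade. PRA1.B3 had deposited intensities of 0.0612, 0.106, 0.169, 0.147, 0.238 and 0.158 in pam48 samples 1 to 6, against 0.0519, 0, 0, 0, 0.169 and 0.130 in WT samples 1 to 6. The WT zeros of PRA1.B3 were those of PRA1.B6, WT 2 to 4, with a low value in WT 1 and higher values in WT 5 and 6. A set of zeros in exactly these 3 samples was found for 9 of 3439 probes, or 0.262%, and 3 of the 9 had a single gene, the third being GH9B16, an endoglucanase of glycosyl hydrolase family 9. In pam48 the paralogues differed in order: PRA1.B3 was highest in sample 5 and lowest in sample 1, and PRA1.B6 highest in sample 3 and lowest in sample 2. Another 4 probes are assigned to several genes that include a PRA1 gene and were not used. Whether spots of related PRA1 genes share signal was not tested.

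The genotype difference of PRA1.B3 was 0.31 ± 0.42 (log2, SE), with -3.38 ± 0.67 in pam48 and -3.70 ± 0.91 in WT (log2 intensity, SD, n = 6 each), and did not pass limma's test (adjusted p = 0.64). For PRA1.B6 the same fit gave the 1.90 stated above, without a test. Without normalisation between samples PRA1.B3 was higher by 2.02 (log2) and passed limma's test (adjusted p = 0.038), on a scale on which the median probe differed by 1.06 and 48.2% of all probes passed as higher in pam48. The shared zeros of both paralogues were noticed after their values were seen. Among the 20 rows around PRA1.B6 in the table, 9 were at 0 in at least 1 of WT 2 to 4, against 20.6% of all probes. At 0 in all of WT 2 to 4 were 3 of the 20 rows, against 3.08% of all probes, so zeros were more frequent around this row than in all probes. PRA1.B3 is 1 of those 3, and the sources used here do not give whether neighbouring rows were neighbouring spots. Around AT4G38040, 3 of 20 rows were at 0 in at least 1 of WT 4 to 6, against 16.5% of all probes. At 0 in all of WT 4 to 6 was 1 of these 20 rows, against 3.37% of all probes.

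Of 39 GT47 genes, AT3G57630 and AT1G34270 had a probe of their own beside AT4G38040. AT1G34270, which the naming rule did not pick, is named because the list is so short. AT3G57630 had deposited intensities of 1.32, 1.24, 1.55, 1.37, 0.431 and 0.303 in pam48 samples 1 to 6, against 0.572, 0.512, 0.789, 0.722, 0.249 and 0.270 in WT samples 1 to 6. In both genotypes numbers 5 and 6 were below all of 1 to 4 after normalisation, as for 12.2% of all probes. Its genotype difference was 0.36 ± 0.47 (log2, SE; limma, adjusted p = 0.63).

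AT1G34270 had nearly the same mean in both genotypes after normalisation, at -2.89 ± 0.18 in pam48 and -2.80 ± 0.46 in WT (log2 intensity, SD, n = 6 each). The difference was -0.095 ± 0.24 (log2, SE), with an adjusted p of 0.81 in limma. Its WT samples 5 and 6 were above all of WT 1 to 4, averaging -2.32 against -3.04 (log2 intensity), as for 23.9% of all probes. Without normalisation between samples AT1G34270 was higher in pam48 by 1.18 and passed limma's test (adjusted p = 0.035). On that scale the shift of the median probe was 1.06 and 48.2% of all probes passed as higher. CSLA01, of the cellulose synthase-like A family whose characterised members make mannans in the Golgi, was the only one of the genes listed for Golgi glycan synthesis with a probe of its own. It had deposited intensities of 0.512, 0.498, 0.391, 0.417, 0.0954 and 0.103 in pam48 samples 1 to 6, against 0.385, 0.313, 0.374, 0.415, 0.135 and 0.1002 in WT samples 1 to 6. Like AT3G57630 it was lower in numbers 5 and 6 of both genotypes. Its genotype difference was -0.69 ± 0.59 (log2, SE; limma, adjusted p = 0.44), and -0.73 without numbers 5 and 6, where it passed (adjusted p = 0.026), as did 27.7% of all probes as lower in pam48. Without normalisation between samples its sign turned, to 0.12 (log2; limma, adjusted p = 0.86).

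Taking these 4 genes of the pathway other than PRA1.B6 and AT4G38040, 0 passed limma's test in either direction with each column as a sample, against 16.8% of all probes, of which 4.89% were higher and 11.9% lower in pam48. None of the 4 had an unadjusted p under 0.05 in limma or in an exact permutation test. Their median difference was 0.11, against -0.13 for all probes (log2). With the couples of consecutive numbers as a random block, which passed 0.233% of all probes, 0 of the 4 passed either, nor with the replicate number as a block, where 12.8% of all probes passed. The lists of Rab GTPases, SNAREs with tethers, vesicle coats, and translocation and folding in the endoplasmic reticulum had no gene with a probe assigned to it alone, so the Rab partners of PRA1 proteins were not analysed here.

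**Figure D4:**
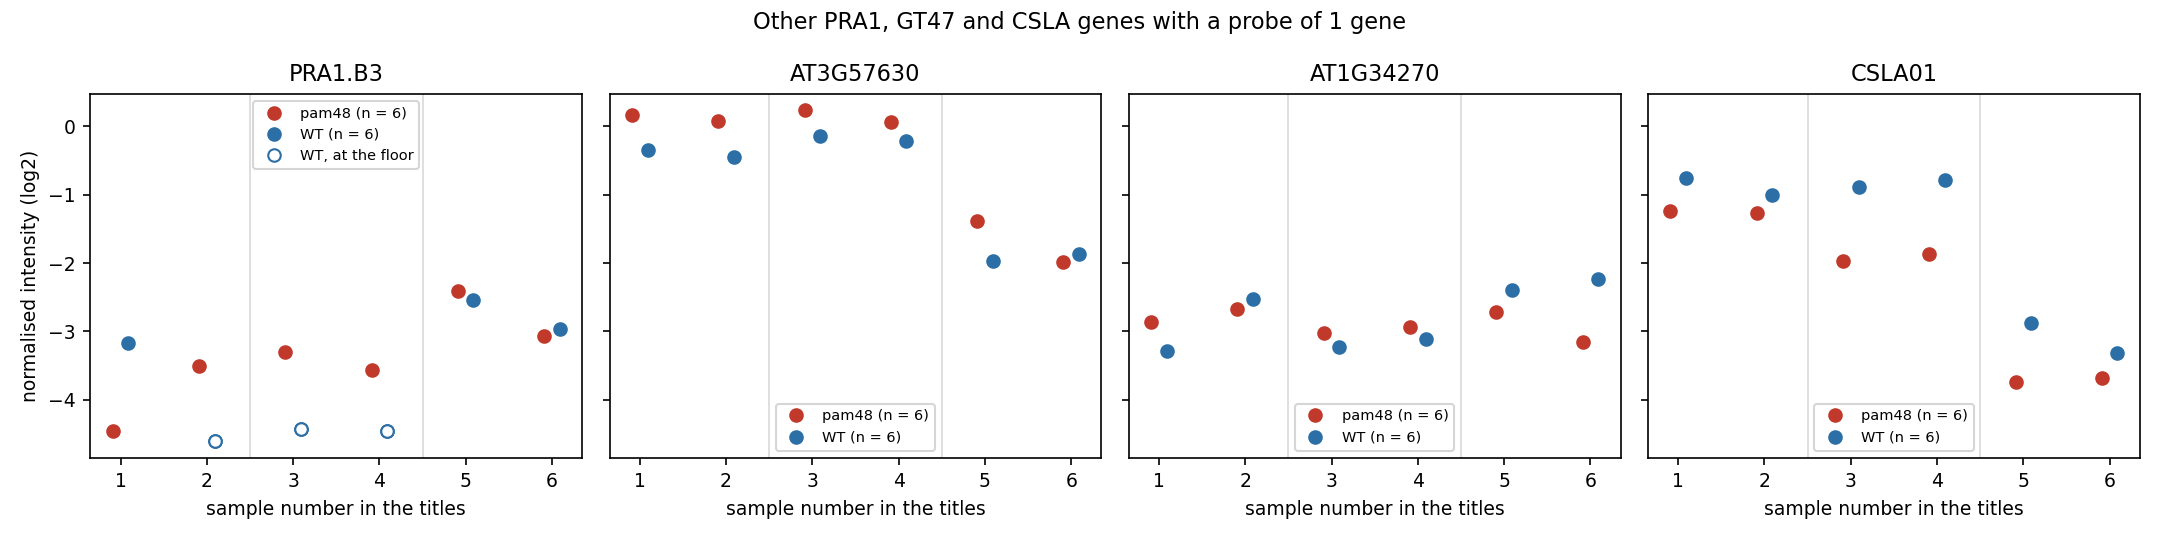
Normalised intensity (log2) of PRA1.B3, AT3G57630, AT1G34270 and CSLA01 against sample number, with 1 point per sample, pam48 in red, WT in blue and open circles for values at the floor. PRA1.B3 is at the floor in WT 2 to 4, and AT3G57630 and CSLA01 are lower in numbers 5 and 6 of both genotypes.

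The genes whose pattern over the 12 columns was nearest to that of each gene were found among 631 single-gene probes at the floor in at most 6 columns. Likeness was the root mean square difference of log2 values after each probe's own mean was taken away, where a smaller value means a closer pattern. This includes the genotype difference by which both genes were chosen, so it is a description. Nearest to PRA1.B6 was AT5G39980, a pentatricopeptide repeat protein, at 0.439, followed by AT1G73740 at 0.440 and AT1G22700 at 0.447, a tetratricopeptide repeat protein of photosystem I assembly. AT-HF (AT4G26900), an enzyme of histidine synthesis, followed at 0.482 and AT4G03150 at 0.489. The median over all ranked probes was 1.46.

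The first 3 of these genes also had a small difference in numbers 5 and 6, of 0.015, -0.35 and -0.25 (log2, pam48 minus WT), against 1.96, 1.53 and 2.04 in numbers 1 and 2 and 3.89, 2.67 and 3.27 in numbers 3 and 4. AT-HF and AT4G03150 were higher in pam48 in numbers 5 and 6 as well, by 1.16 and 0.76 (log2). None of the 5 had more than 1 WT column at the floor, where PRA1.B6 had 3.

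AT4G38040 had no neighbour as close. The nearest was AT2G31800 at 0.943, with 3 WT columns and 1 pam48 column at the floor, followed by AT4G17070 at 1.12, AT1G24040 at 1.12, AT1G65500 at 1.13 and AT2G35390, a ribose-phosphate pyrophosphokinase, at 1.17, against a median of 1.85. Their differences in numbers 5 and 6 ran from 0.055 to 1.60 (log2, pam48 minus WT), all under the 3.09 of AT4G38040. PRA1.B6 and AT4G38040 were not close to each other, at 1.90. From PRA1.B6, with a median of 1.46, this put AT4G38040 at rank 554 of 630. From AT4G38040, with its median of 1.85, it put PRA1.B6 at rank 359 of 630, near the middle.

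**Figure D5:**
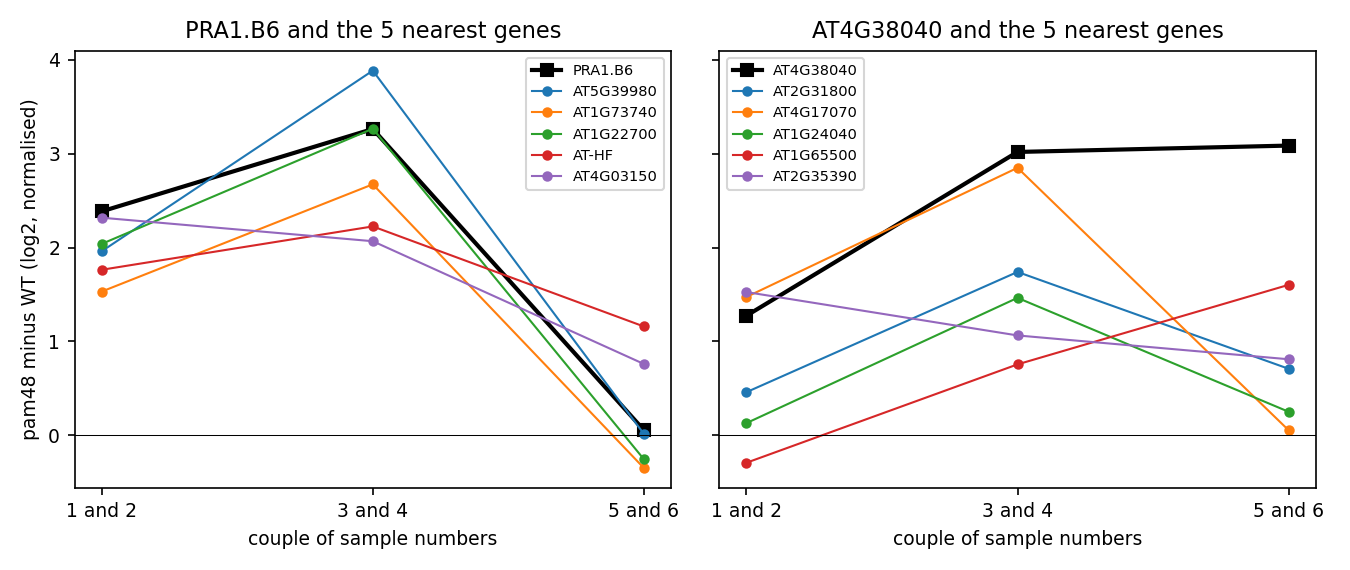
Difference of pam48 minus WT (log2, normalised) in each couple of sample numbers for PRA1.B6 and AT4G38040 (black squares) and for the 5 genes nearest to each in pattern (coloured points). The lines join values of 1 gene and mark no order in time, and AT5G39980, AT1G73740 and AT1G22700 lie near or below 0 in numbers 5 and 6, as PRA1.B6 does at 0.055.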

How the data were processed

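Transcript abundance was measured on arrays of 3439 probes in 12 samples, grouped by genotype from the sample titles. The deposited intensity values are linear, from 0 to 100 in every sample. The sources used here do not say how the authors labelled, scanned, background-corrected or normalised them, nor which build the probes come from, so no coordinates are printed. Each sample had 3 to 7 spots at the maximum and 143 to 385 at 0.

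Intensities were quantile normalised between samples, values under each sample's 5th percentile of positive values were raised to it (the floor, -6.13 to -4.43 on the log2 scale), and log2 was taken. Values at the floor have no order. All probes entered a two-sided limma fit (version 3.58.1, under R 4.3.3) of pam48 minus WT, and p-values were adjusted over the 3439 probes by Benjamini-Hochberg, with a threshold of 0.05. The fit was tested on simulated data. Whether numbered samples came from separate plants is not stated, so the p-values and SEs reflect the spread among these samples alone, and it may be technical. The number of samples limits the precision.

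Deviations of same-numbered pam48 and WT samples correlated in all 6 numbers (r across probes 0.188 to 0.419). The main fit did not pair the samples, and pairing by number entered as an alternative, with the replicate number as a block. What a number marks is not stated in the labels. The highest r with another number was 0.165 to 0.369, and in number 4 it was 0.187 against 0.188 for the same number.

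Probes were named from the platform annotation through Entrez identifiers and the TAIR10.1 gene table: 692 had 1 gene (690 matched a locus), 870 had several and 1877 were not listed. Genes, lists and tests were chosen with earlier results of these data known. Named were both genes, the 5 single-gene probes nearest to each in pattern, and in each list up to 3 called genes or, with none called, the one with the smallest p. Alternatives were other scalings, other floors, a pseudocount of 0.1, a filter on dim probes, blocks, averaged couples, an exact permutation test over 924 splits, and samples left out.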

Additional observations from a re-analysis of the deposited data

How the results depend on the processing

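Both genes were higher in pam48 under each of the 23 alternatives tried for them, with differences from 1.22 to 3.50 for PRA1.B6 and from 1.79 to 3.57 for AT4G38040 (log2). Since both were selected for higher signal in pam48 in these data, this shared direction is a description and no support. The replicate block and the averaged couples cannot change the difference of the means, which stayed at 1.90 and 2.46. The only value to move by more than the spread between samples was that of PRA1.B6 on the values as deposited, at 3.50. The lowest value of PRA1.B6, 1.22, was that without numbers 3 and 4, and without numbers 5 and 6 it was 2.82. Leaving out numbers 1 and 2 or 3 and 4 was chosen after seeing the data. Leaving out single samples gave 1.67 to 2.25 for PRA1.B6 and 2.13 to 2.85 for AT4G38040. The lowest value of AT4G38040 came with a pseudocount of 0.1 in place of the floor, where PRA1.B6 gave 1.33.

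The count of probes that passed limma's test, 578 (168 higher, 410 lower in pam48), is only the background here, and the cause of its changes was not tested. It was 1739 on the values as deposited (1658 higher, 81 lower), 305 with cyclic loess (123 higher, 182 lower), 377 with 1 common floor, 369 without probes at the floor in more than 6 samples, 8 with couples as a random block, 0 with couples averaged (386 at an unadjusted p under 0.05 in limma), 1526 without numbers 5 and 6, 10 without numbers 1 and 2 and 11 without numbers 3 and 4. Leaving out single samples gave 158 to 678, with 158 to 223 for each of the 8 samples numbered 1 to 4 of either genotype. With pairing by a replicate block 441 passed (188 higher, 253 lower), and the block changed no call among the 4 other genes of the pathway. The adjusted p of CSLA01 in limma was 0.054 with the block and 0.44 without it, and that of AT3G57630 was 0.18 and 0.63. Of the 4 other genes, 0 passed in the main fit. It was 2 on the values as deposited (PRA1.B3 and AT1G34270), 1 without numbers 5 and 6 (CSLA01), and 0 whichever single sample was left out. Signal over background limits both genes in WT, where 3 of 6 samples are at 0 and give no level.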
